A study of Mus musculus with 28 samples.

Results

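The comparison described here is between 2 batches of mice in one study of the striatum: 12 mice labelled batch 2 against 16 mice labelled batch 1, which together are all 28 libraries of the series. The mice were chosen by the batch given in their labels, and no expression value entered the choice. All 28 were C57BL/6J mice bred at UNC, a few generations from Jackson Laboratory founders. Batch 1 held 8 mice given haloperidol, an antipsychotic that blocks dopamine D2 receptors, and 8 given placebo. Batch 2 held 8 haloperidol and 4 placebo mice. The series calls the treatment chronic; its dose and duration, and the age and sex of the mice, are not stated in the labels. The labels use the word batch alone, so whether it stands for breeding, dissection, RNA extraction or library preparation is not known here.

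The striatum is the input nucleus of the basal ganglia and consists mostly of spiny projection neurons, with interneurons, glia and blood vessels. Several gene programs in such tissue follow the state of the animal and of the cells as well as the cell types present. Cells short of sterols raise cholesterol synthesis through SREBP2, cells with unfolded protein in the endoplasmic reticulum (ER) raise ER chaperones through XBP1 and ATF6, and circulating corticosteroids raise a set of target genes through the glucocorticoid receptor. Brain vessels carry a transport program of their own, the blood-brain barrier.

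Levels are FPKM, that is fragments per transcript length and per total of mapped fragments, summed over the transcripts of a gene and scaled between libraries by the median of ratios. Sequencing depth relative to the other libraries, which is all the files give, ranged from 0.433 to 1.73, and Pearson's r between libraries had a median of 0.970. Marker genes of spiny projection neurons, the defining cells of the labelled tissue, summed to between 2604 and 5074 in batch 1 and between 2823 and 4590 in batch 2. The RNA integrity number (RIN, from the labels) moved with the batch: it was 7.75 ± 0.379 (SD, n = 16) in batch 1 and 8.33 ± 0.507 (SD, n = 12) in batch 2, a difference of 0.580 (2-sided permutation test, p = 0.00224). For that reason the batch difference was fitted in 2 models, one with treatment as a term and one with treatment and RIN as terms. A difference printed without naming a fit is from the model without RIN, and for many genes it is the only value printed. The summed FPKM was 440737 in batch 2 and 480065 in batch 1 on average, a difference that did not pass (2-sided permutation test, p = 0.0908), and relative depth differed by -0.0449 (p = 0.747). In bulk tissue, fewer cells of a type and less RNA per cell cannot be told apart.

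With treatment as a term, 7 genes of sterol synthesis were higher in batch 2, and 7 ER chaperone genes, the glucose transporter Slc2a1, 3 genes known from endothelium (Notch4, Hspa12b and Ly6c1, of which Ly6c1 alone is among the 20 tested members of the endothelial list), the corticosteroid target Tsc22d3 and the neuropeptides Nts and Crh were lower. Of 12760 genes tested, 52 passed an adjusted p of 0.05 (0.408%; limma, Benjamini-Hochberg), 15 of them higher (0.118%) and 37 lower (0.290%) in batch 2. With RIN in the model 6 passed (0.0470%): 3 were higher (0.0235% of genes), among them Insig1 and Sc4mol, and Nts, Fndc9 and Notch4 were lower (0.0235%). All 52 kept their direction with RIN, 44 of them with a smaller difference, and all 52 had an unadjusted p under 0.05 in that model. The batches also differed by small amounts over many genes, with 26.7% of all genes at an unadjusted p under 0.05 without RIN and 5.89% with it. The count of 52 was sensitive to single mice: it ranged from 17 without batch 2 mouse 32 to 201 without batch 1 mouse 17, and was 6 among the 22 mice whose RIN lay in the range that both batches cover. The calls of 16 genes held whichever mouse was left out (among them Insig1, Sc4mol, Sqle, Aacs, Fndc9, Nts, Notch4, Hspa12b, Ly6c1, Slc2a1, Creld2, Xbp1, Tsc22d3, Lman2 and Zdhhc14), and each of the others was lost in at least 1 of those fits.

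**Figure D1:**
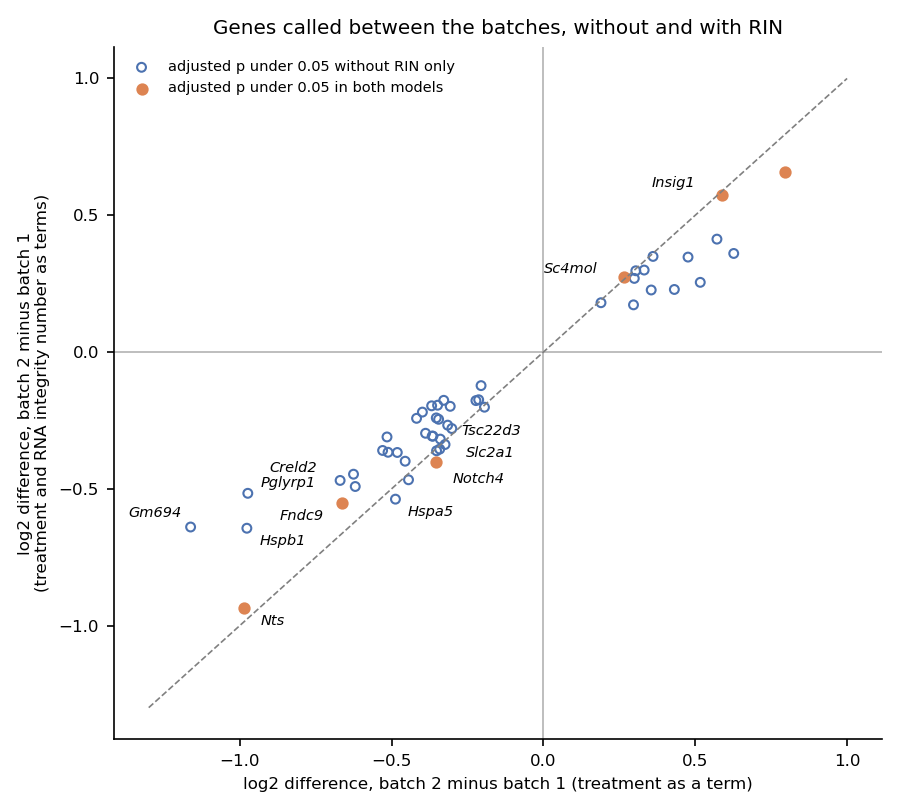
Log2 difference (batch 2 minus batch 1) of the 52 genes called, without RIN (x axis) and with RIN (y axis) as a model term; 1 point is 1 gene and the dashed line marks equal values. All points lie in the lower left or upper right quadrant, 44 of 52 moved toward 0 with RIN, and the 6 filled points passed the threshold in both models.

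The 5 genes taken as markers of the comparison, chosen with results of these mice known, come from different programs. Insig1, the ER protein that holds the sterol sensor back when sterol is plentiful and is itself an SREBP2 target, lies on chromosome 5 (28397952 to 28405202, plus strand, 5 exons; this and later gene positions are in mm9). Its scaled FPKM was 17.9 to 27.7 in batch 1 with a median of 22.1, and 29.5 to 38.3 in batch 2 with a median of 33.4. The batches did not overlap, and every batch 2 mouse was above every batch 1 mouse. The difference was 0.59 on the log2 scale (SE 0.06, limma adjusted p = 8.58e-06), or 1.5-fold, and 0.57 with RIN (limma adjusted p = 0.000579).

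Fndc9, a membrane protein gene with a fibronectin type III domain (chromosome 11, 46049059 to 46053373, plus strand, 2 exons), was at 5.33 to 9.92 in batch 1 with a median of 7.60 and at 2.41 to 5.87 in batch 2 with a median of 5.19. All 12 batch 2 mice were below the batch 1 median and 9 were below the lowest batch 1 mouse. The log2 difference was -0.66 (SE 0.09, limma adjusted p = 0.000355), and -0.55 with RIN (limma adjusted p = 0.0306).

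Creld2, an ER-resident protein induced by unfolded protein (chromosome 15, 88650076 to 88657111, plus strand, 10 exons), was at 13.96 to 29.4 in batch 1 with a median of 21.04 and at 10.7 to 18.6 in batch 2 with a median of 13.2. The ranges overlapped, but 8 of 12 batch 2 mice were below all of batch 1. Its log2 difference was -0.67 (SE 0.11, limma adjusted p = 0.00432); with RIN it was -0.47 and did not pass (limma adjusted p = 0.213).

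Tsc22d3 encodes the glucocorticoid-induced leucine zipper, one of the most regular targets of the glucocorticoid receptor (chromosome X, 137074068 to 137135061, minus strand). It was at 36.2 to 53.3 in batch 1 with a median of 44.2 and at 30.2 to 38.2 in batch 2 with a median of 34.8. All batch 2 mice were below the batch 1 median and 9 below its lowest mouse. The log2 difference was -0.34 (SE 0.06, limma adjusted p = 0.0102), and -0.32 with RIN (limma adjusted p = 0.134).

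Slc2a1, the GLUT1 glucose transporter of brain endothelium and astrocytes (chromosome 4, 118781350 to 118809934, plus strand, 10 exons), was at 30.1 to 47.2 in batch 1 with a median of 40.0 and at 26.7 to 37.6 in batch 2 with a median of 31.3. All batch 2 mice were below the batch 1 median, and 4 were below its lowest mouse. The log2 difference was -0.32 (SE 0.06, limma adjusted p = 0.0113) and with RIN -0.34 (limma adjusted p = 0.0851). The calls of Tsc22d3 and Slc2a1 held in all 28 fits that left out 1 mouse, and each was lost in 5 of 16 other settings.

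**Figure D2:**
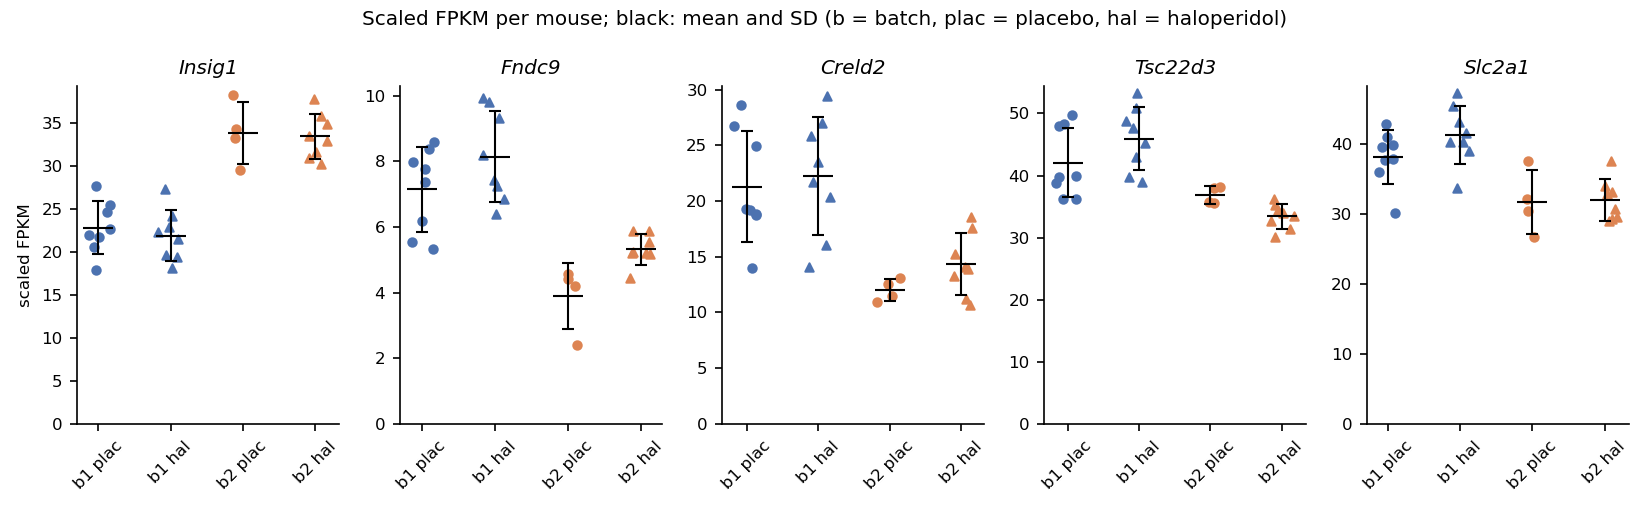
Scaled FPKM of Insig1, Fndc9, Creld2, Tsc22d3 and Slc2a1 in each mouse (circles placebo, triangles haloperidol; blue batch 1, orange batch 2), with the mean and SD of each of the 4 groups in black. Both treatments show the same direction for each gene, and the batches are fully apart for Insig1 only.

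Of the 29 gene lists, that of sterol genes held the most genes called higher. Of 23 tested members of a list of cholesterol synthesis and its control, 7 rose and 0 fell (0.118% of all genes rose), and the list's median log2 difference was 0.22, against -0.0027 over all genes tested. With RIN the median was 0.23 against 0.0024 over all genes, 22 of 23 members were above 0 and 3 passed. Sc4mol, an oxidase that removes methyl groups late in the pathway, was at 43.8 to 55.3 in batch 1 and at 55.4 to 67.0 in batch 2. Its batches lay next to each other without overlap, and its log2 difference was 0.26 (SE 0.04, limma adjusted p = 0.00109). Insig1 and Sc4mol were the 2 genes of all those tested whose batches did not overlap (0.0157%). Sqle, Idi1, Cyp51 and Hsd17b7, enzymes of the same route, rose by 0.33, 0.35, 0.19 and 0.63 on the log2 scale. Outside the list, Aacs, which turns ketone bodies into a precursor for lipid synthesis, rose by 0.30 (limma adjusted p = 0.0113). Hmgcs1, the enzyme before the rate-limiting step, is listed at 0 in all mice and gave no value.

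The list of ER chaperones held the most genes called lower. Of 25 members of a list of ER chaperones and unfolded protein response genes, all of which were tested, 7 fell (28.0%, against 0.290% of all genes) and 0 rose. The median log2 difference of the list was -0.18. The summed level of the list was 1238 to 1969 in batch 1 with a median of 1641, and 1176 to 1555 in batch 2 with a median of 1285, below the batch 1 median in 12 of 12 mice. With RIN no member passed, while the median was -0.20 and 23 of 25 members were below 0, against 6255 of 12760 genes. With FPKM rescaled to a common sum, which moved the median of all genes to 0.15, the list's median was -0.01 and 1 member, Creld2, passed.

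The promoters of 3 of the 7 genes are printed because each carries the ER stress element, the motif through which ATF6 acts together with NF-Y. The letters searched were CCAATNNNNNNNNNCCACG on both strands, in the 250 bases before each RefSeq start (GRCm38.p6). It was found in 37 of 32851 promoters (0.113%). Of the 22 list members with a RefSeq promoter 9 held it, namely 3 of the 6 called genes and 6 of the 16 others (Syvn1, Calr, Hsp90b1, Derl3, Canx and Dnajc3). Other elements were searched in their own lists. The sterol element (ATCACNCCAC, 0.192% of all promoters) was in 0 of 15 sterol genes, the heat shock element (GAANNTTCNNGAA, 0.466%) in 2 of 21 cytosolic chaperones and 0 of 1 called, and the glucocorticoid element (ACANNNTGT, 5.84%) in 5 of 28 receptor genes and targets and 0 of 1 called. Whether called and other members differ in this was not tested, and a match is a description of the sequence only. The 250 bases before the start of each gene follow, all on the plus strand, with the match in capitals; in Creld2 it reads on the other strand.
Creld2: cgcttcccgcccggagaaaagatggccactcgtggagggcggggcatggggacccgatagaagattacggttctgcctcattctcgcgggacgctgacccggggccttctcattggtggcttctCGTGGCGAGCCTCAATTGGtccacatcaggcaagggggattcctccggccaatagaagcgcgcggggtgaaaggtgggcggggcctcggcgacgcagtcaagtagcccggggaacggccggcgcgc
Pdia6: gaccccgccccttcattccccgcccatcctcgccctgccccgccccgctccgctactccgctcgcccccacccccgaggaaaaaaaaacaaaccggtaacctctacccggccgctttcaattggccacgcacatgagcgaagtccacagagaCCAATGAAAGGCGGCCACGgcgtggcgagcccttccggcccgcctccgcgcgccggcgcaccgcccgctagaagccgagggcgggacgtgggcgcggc
Hspa5: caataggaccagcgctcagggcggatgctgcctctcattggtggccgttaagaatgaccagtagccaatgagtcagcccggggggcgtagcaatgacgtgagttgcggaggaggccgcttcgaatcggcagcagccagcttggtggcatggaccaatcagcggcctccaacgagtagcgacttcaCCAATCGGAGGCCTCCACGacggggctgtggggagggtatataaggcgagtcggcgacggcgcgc

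These windows are chr15:88819396-88819645 for Creld2, chr12:17266339-17266588 for Pdia6 and chr2:34771840-34772089 for Hspa5 (GRCm38.p6), and 107, 79 and 46 bases lie between the match and the start.

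Among the chaperones themselves, Hspa5 encodes BiP, the main Hsp70 of the ER and its sensor of unfolded protein. It was at 107 to 229 in batch 1 with a median of 179 and at 104 to 162 in batch 2 with a median of 119. All 12 batch 2 mice were below the batch 1 median, although 2 alone were below its lowest mouse. Hspa5 fell by 0.49 on the log2 scale (SE 0.11, limma adjusted p = 0.0399), and with RIN the difference was -0.54 (limma adjusted p = 0.194). Its co-chaperones moved the same way: Dnajb11, a J protein of BiP, fell by 0.31 and Sdf2l1, its partner in the ER, by 0.63. Sdf2l1 was at 9.98 to 32.4 in batch 1 and at 8.54 to 15.7 in batch 2.

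Pdia6, a disulfide isomerase, was at 54.1 to 93.1 in batch 1 and at 48.5 to 75.0 in batch 2 and fell by 0.36 (limma adjusted p = 0.0247). Pdia6 shares exon bases with Atp6v1c2 on the other strand, so its value is uncertain by reads from that gene. Manf, a secreted protein kept in the ER until stress, was at 20.95 to 50.2 and then at 17.8 to 32.8, a fall of 0.53 (limma adjusted p = 0.0251). Both were below the batch 1 median in 12 of 12 batch 2 mice. Of the regulators, Xbp1, the transcription factor whose messenger is spliced when unfolded protein builds up, was at 37.4 to 66.2 in batch 1 and at 36.7 to 44.8 in batch 2 (log2 -0.39, SE 0.07, limma adjusted p = 0.0139). All 12 batch 2 mice were below the batch 1 median, and 2 were below its lowest mouse. The files do not separate the 2 Xbp1 transcripts well, since one of them, at medians of 15.78 and 14 in the 2 batches, was at or near 0 in at least 1 mouse of each batch.

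The list was not lower throughout. Dnajb9 and Sel1l, both targets of the XBP1 and IRE1 branch, had differences of 0.30 and 0.29 without RIN and of -0.04 and -0.09 with it, and passed in neither model. From the list of the amino acid response, Ddit3, the transcription factor CHOP, had a difference of -0.55 (limma adjusted p = 0.141) and -0.11 with RIN, and it overlaps Mars on the other strand. Of the 23 tested genes of that response, the ATF4 program, 0 passed in limma in either direction. At an unadjusted p under 0.05, 2 were higher and 3 lower, against 26.7% of all genes, and their median was -0.06. Leaving out single mice cost Creld2 and Xbp1 no call, but ended the call of Hspa5 and of Dnajb11 in 20 of 28 fits, of Sdf2l1 in 16, of Manf in 9 and of Pdia6 in 5.

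**Figure D3:**
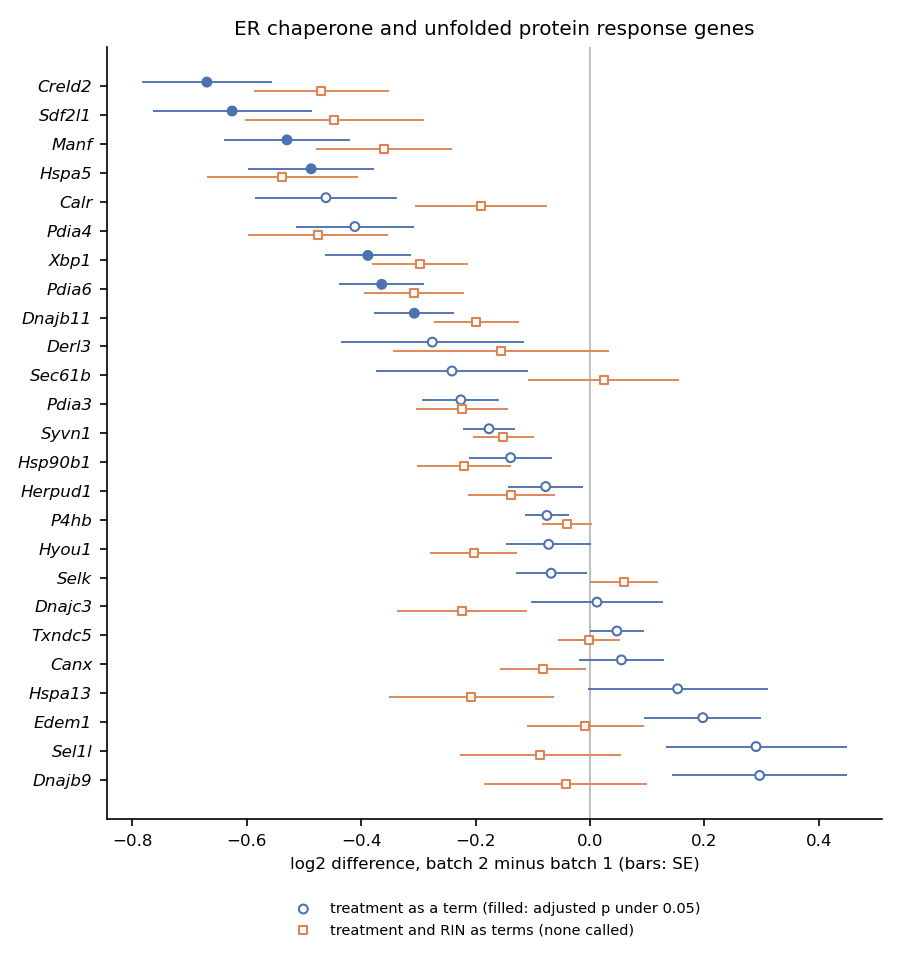
Log2 difference (batch 2 minus batch 1) with its SE for the 25 ER chaperone and unfolded protein response genes, with treatment (blue circles, filled where called) and with treatment and RIN (orange squares) as terms. The 7 filled points lie between -0.67 and -0.31, and 23 of the 25 squares lie below 0.

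Fewer cytosolic chaperones passed. Of 26 members, all tested, 2 fell (0.290% of all genes fell) and 0 rose, with a median log2 difference of -0.12. Hspb1, the small heat shock protein HSP27, was at 12.9 to 64.2 in batch 1 with a median of 25.6 and at 7.29 to 25.05 in batch 2 with a median of 12.5. It fell by 0.98 (SE 0.22, limma adjusted p = 0.0392), with 7 of 12 batch 2 mice below all of batch 1. Hsf1, the transcription factor that drives the heat shock genes, was at 14.9 to 23.03 and then at 12.4 to 18.4, a fall of 0.33 (limma adjusted p = 0.0482). With RIN neither passed (log2 -0.64 and -0.18), though 24 of 26 members were below 0 with a median of -0.06. The calls of Hspb1 and Hsf1 were lost in 18 and in 21 of the 28 fits without 1 mouse. Hspa1a and Hspa1b, the stress-induced Hsp70 genes and near-identical copies whose reads cannot be fully told apart, had differences of -0.14 and -0.21. With FPKM rescaled to a common sum the list's median was 0.05, again below the 0.15 of all genes.

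Among vascular genes, single members passed. Of 20 tested endothelial genes 1 fell (0.290% of all genes fell) and 0 rose (0.118% rose), and 7 were above 0; the median log2 difference was -0.14 without RIN and -0.15 with it, and 18 of 20 were below 0 with RIN. That median was 0.02 with FPKM rescaled to a common sum, below the 0.15 of all genes. The member that fell was Ly6c1, a surface protein of brain endothelium and of monocytes, at 30.1 to 70.5 in batch 1 with a median of 47.1 and at 26.1 to 42.8 in batch 2 with a median of 34.6. All batch 2 mice were below the batch 1 median (log2 -0.51, SE 0.10, limma adjusted p = 0.0115), and with RIN the difference was -0.37 (limma adjusted p = 0.314). Its near-identical neighbour Ly6c2 was listed at a mean of 0.04. The next members by p, Sox17, Ly6a and Eng, differed by -0.38, -0.45 and -0.37 (limma adjusted p = 0.0821, 0.0950 and 0.0950). With RIN they differed by -0.19, -0.20 and -0.14. At an unadjusted p under 0.05 without RIN, 6 members were lower and 0 higher, against 26.7% of all genes in either direction. Flt1 and Kdr, receptors of the vascular growth factor, differed by 0.44 and 0.41 without RIN and by -0.19 and -0.16 with it. Cldn5, the tight junction protein, differed by -0.16 and 0.33. Flt1, Kdr and Cldn5 were added after their values were seen. No member named after Ly6c1 passed.

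Called genes outside the list included further genes that are known from endothelium. Notch4, the endothelial Notch receptor, is a low gene, at 0.978 to 1.80 in batch 1 with a median of 1.31 and at 0.772 to 1.14 in batch 2 with a median of 0.942. It was below the batch 1 median in 12 of 12 batch 2 mice and fell in both models, by 0.35 (SE 0.06, limma adjusted p = 0.0102) and with RIN by 0.40 (limma adjusted p = 0.0306). Hspa12b, a distant Hsp70 relative of endothelial cells, was at 2.84 to 4.66 and then at 1.97 to 3.30, with 9 of 12 batch 2 mice below all of batch 1 (log2 -0.46, SE 0.07, limma adjusted p = 0.00109; with RIN -0.40, limma adjusted p = 0.0816). Ehd2, a protein of caveolae, and Nes, the intermediate filament nestin of progenitors and growing vessels, fell by 0.30 and 0.37. These genes were grouped here after their values were seen, and no test was made of them as a group.

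Blood-brain barrier transporters showed no common direction. Of 21 tested, Slc2a1 fell (0.290% of all genes fell), 0 rose and the median was 0.02. Mfsd2a, which carries docosahexaenoic acid into brain, differed by -0.23 (limma adjusted p = 0.122). With RIN it differed by -0.35 (limma unadjusted p = 0.000104, adjusted p = 0.113), and it passed in neither model. Slc16a1, the monocarboxylate transporter of vessels, and Tfrc, the transferrin receptor and also a gene with an iron-regulated messenger, differed the other way, by 0.29 and 0.35, and did not pass. Of 12 tested mural cell genes, which mark pericytes and smooth muscle, 0 passed in limma, with 1 higher and 5 lower at an unadjusted p under 0.05, against 26.7% of all genes; their median of -0.31 without RIN was -0.0023 with it. Of 10 tested genes of activated endothelium 0 passed, with 1 in each direction at that unadjusted p.

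**Figure D4:**
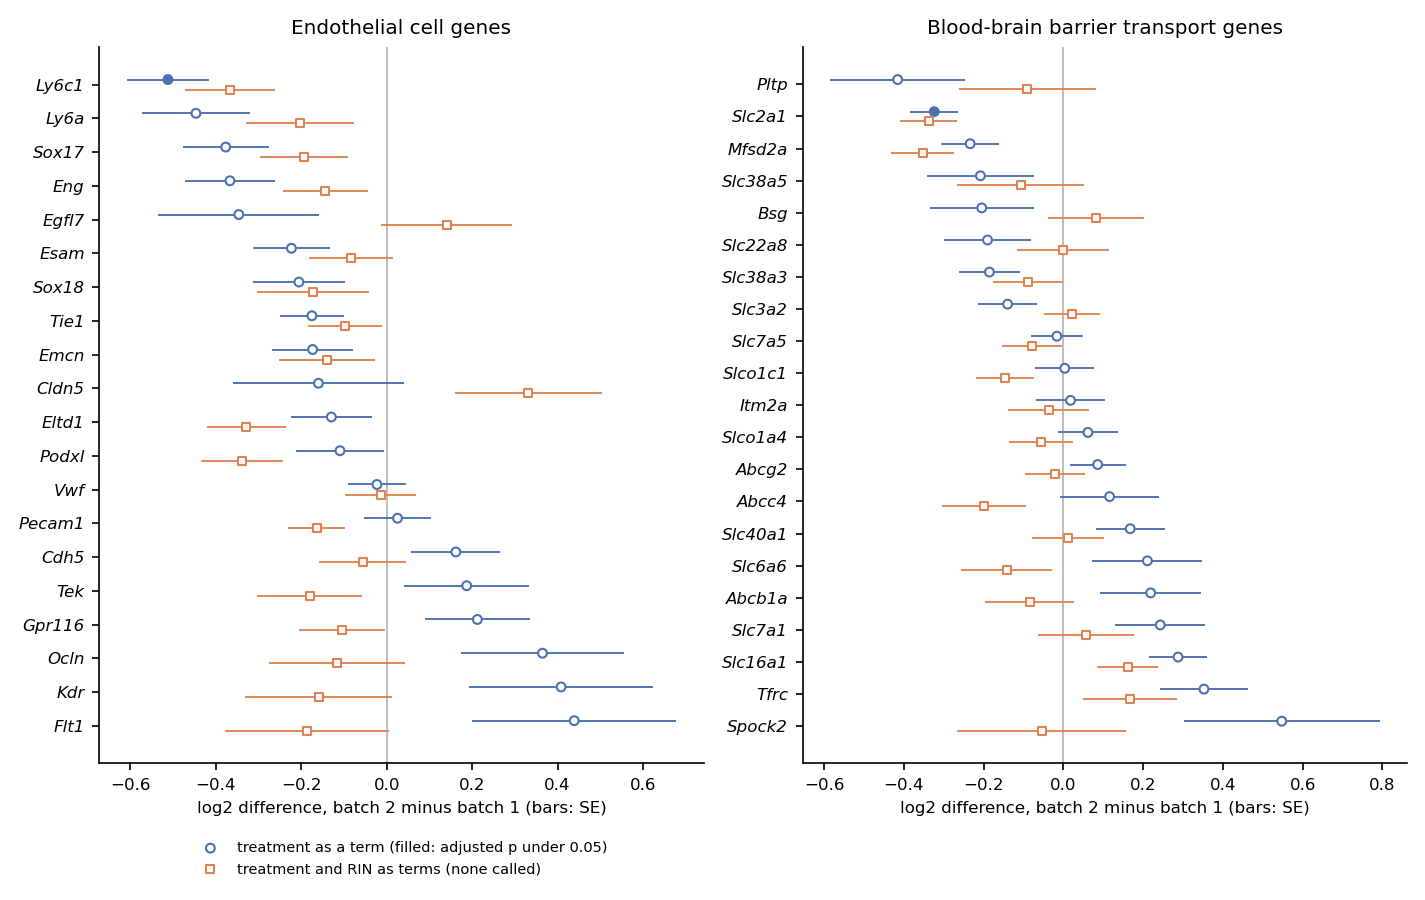
Log2 difference (batch 2 minus batch 1) with its SE for 20 endothelial genes (left) and 21 blood-brain barrier transport genes (right), with treatment (blue circles, filled where called) and with treatment and RIN (orange squares) as terms. Ly6c1 and Slc2a1 are the filled points, and 18 of the 20 endothelial squares lie below 0 while 15 of the 21 transport squares do.

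Slc2a1 is also a target of the hypoxia factor HIF1, so its change was read beside that program. Of 20 tested hypoxia and glycolysis genes 2 fell (0.290% of all genes fell) and 0 rose, with a median of 0.02. The other was P4ha1, which hydroxylates collagen, at 14.8 to 24.03 in batch 1 with a median of 19.5 and at 12.0 to 17.1 in batch 2 with a median of 15.2 (log2 -0.32, SE 0.07, limma adjusted p = 0.0399; with RIN -0.27). Vegfa, Ldha and Pgk1, typical members picked after their values were seen, differed by 0.30, -0.02 and 0.02 and did not pass.

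Among steroid-responsive genes 1 passed. Of 32 tested glucocorticoid receptor genes and targets Tsc22d3 fell (0.290% of all genes fell), 0 rose and the median was -0.09; with RIN it was -0.16, 28 of 32 were below 0 and 0 passed. With FPKM rescaled to a common sum the median was 0.07, below the 0.15 of all genes. The next genes by p were Gjb6, the astrocyte connexin 30, at 17.6 to 24.1 and then at 14.5 to 20.1 (log2 -0.25, limma adjusted p = 0.0640), the sulfotransferase Sult1a1 (log2 -0.49, limma adjusted p = 0.0936) and Mt2, a metallothionein, at 216 to 661 and then at 142 to 349 (log2 -0.60, limma adjusted p = 0.110). All of them overlapped between batches, and none passed. Fkbp5 and Sgk1, widely used readouts of corticosteroid exposure that were added after their values were seen, differed by -0.24 and -0.04, and with RIN by -0.29 and -0.25. The list's median was -0.16 in haloperidol mice alone and 0.05 in placebo mice alone.

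Peptide and hormone genes included some of the larger falls. Nts, the precursor of neurotensin, a peptide that striatal neurons raise under D2 blockade, was at 16.1 to 40.6 in batch 1 with a median of 25.9 and at 4.92 to 25.1 in batch 2 with a median of 15.9. All batch 2 mice were below the batch 1 median and 6 were below its lowest mouse. Nts fell by 0.99 (SE 0.15, limma adjusted p = 0.000824), and with RIN by 0.94 (limma adjusted p = 0.0306). In placebo mice it was at 16.1 to 35.1 in batch 1 and at 4.92 to 11.7 in batch 2, and in haloperidol mice at 24.9 to 40.6 and at 11.9 to 25.1. Crh, corticotropin-releasing hormone, was at 4.08 to 6.83 in batch 1 and at 1.90 to 5.002 in batch 2, where 10 of 12 mice were below all of batch 1 (log2 -0.62, SE 0.12, limma adjusted p = 0.0169). With RIN its difference was -0.49 (limma adjusted p = 0.314).

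Some further genes fell by larger amounts. Gm694, a gene known by a model number only, was at 3.36 to 15.4 and then at 1.29 to 6.57 and fell by 1.16 (SE 0.24, limma adjusted p = 0.0245), the largest difference among the 52 called genes. Pglyrp1, a peptidoglycan-binding protein of innate immunity, was at 10.97 to 49.2 in batch 1 and at 5.98 to 19.5 in batch 2 (log2 -0.97, limma adjusted p = 0.0328). With RIN these differences were -0.64 and -0.52, and neither passed. Microglial markers, set beside Pglyrp1, had 0 of 14 called in limma (7 lower at an unadjusted p under 0.05, against 26.7% of all genes in either direction), a median of -0.21 and a summed level of 378 to 703 in batch 1 and 348 to 556 in batch 2; their part in its value was not tested.

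Further called genes belonged to none of the gene lists. Baiap2, an actin scaffold of dendritic spines, was at 123 to 196 and then at 95.4 to 147, with 9 of 12 batch 2 mice below all of batch 1 (log2 -0.35, limma adjusted p = 0.0251). Camk1g, a calmodulin-dependent kinase, fell by 0.35, Itpk1, an inositol phosphate kinase, by 0.37, Zdhhc14, a palmitoyltransferase, by 0.52 and Tubb2b, a neuronal beta tubulin, by 0.42. Sdc4, a heparan sulfate proteoglycan, fell by 0.35, and Lman2, a cargo receptor between ER and Golgi, by 0.19 (limma adjusted p = 0.0151), with 12 of 12 batch 2 mice below the batch 1 median. With RIN the differences of Baiap2 and Itpk1 were -0.19 and -0.20, that of Lman2 was -0.20, and no gene of this paragraph passed.

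Of the 15 genes called higher, 8 were outside the sterol list. Id2, an inhibitor of helix-loop-helix factors, was at 34.8 to 69.1 in batch 1 with a median of 55.1 and at 54.9 to 96.4 in batch 2 with a median of 71.9 (log2 0.52, SE 0.12, limma adjusted p = 0.0381). In 9 of 12 batch 2 mice it was above all of batch 1. H1f0, the linker histone of resting cells, Sytl2, a Rab27 effector, Pak7, a kinase of neurons, and Hnrpdl, an RNA-binding protein, rose by 0.30, 0.57, 0.48 and 0.30. None of these passed with RIN.

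Clock and activity programs gave 0 calls. Of 19 tested clock genes 0 passed in limma, with 2 higher and 5 lower at an unadjusted p under 0.05 (26.7% of all genes) and a median of 0.08. Dbp, an output of the clock that overlaps Sphk2 on the other strand, was at 42.7 to 131 in batch 1 and at 38.1 to 72.3 in batch 2 (log2 -0.46, limma adjusted p = 0.107), and Nr1d1, a repressor of the clock, differed by -0.26 (limma adjusted p = 0.111). Arntl, the activator in antiphase with them, added after its value was seen, differed by 0.22 (limma adjusted p = 0.20). Ccrn4l, nocturnin, a rhythmic enzyme outside that list, fell by 0.22 (limma adjusted p = 0.0495). Of 19 tested immediate early genes, which follow recent neuronal activity, 0 passed, with 2 in each direction at that unadjusted p against 3410 of all 12760 genes.

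Several other lists were far from 0 without RIN and near 0 or reversed with it. Ribosomal protein genes, of which 80 of 81 were below 0, 65 lower at an unadjusted p under 0.05 (26.7% of all genes in either direction) and 0 called in limma, had a median of -0.44, and with RIN of 0.04. Oxidative phosphorylation genes had -0.30 and then 0.10, with 0 of 77 called. Choroid plexus genes, from tissue of the ventricle beside the striatum, had a median of 0.25 with 14 of 14 above 0, and with RIN -0.22 with 14 of 14 below 0. Their summed level ran from 24.3 to 9418 in batch 1 and from 184 to 5145 in batch 2, and varied widely between mice within each batch. Its part in the differences was not tested, while with the choroid plexus level as a further term 56 genes passed and 48 of the 52 were among them.

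Markers of cortical excitatory neurons were higher in batch 2 in both models. The list's median was 0.34 without RIN and 0.38 with it, with 10 of 10 members above 0 each time and 0 called in limma (7 higher at an unadjusted p under 0.05 without RIN, against 26.7% of all genes in either direction). Its summed level was 209 to 594 in batch 1 with a median of 336, and 334 to 494 in batch 2 with a median of 422, above the batch 1 median in 11 of 12 mice. Tbr1, a transcription factor of deep-layer neurons, was at 7.01 to 24.8 in batch 1 and at 14.8 to 31.02 in batch 2 (log2 0.52, limma adjusted p = 0.0999), and no marker of the list was at 0. With the cortical level as a further term 9 genes passed, 8 of them among the 52, and 0 ER genes and 3 sterol genes among them. The cortical level's part in the results was not tested beyond that count, and in Creld2 the difference was then -0.60 (limma adjusted p = 0.0696).

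Markers of the other cell types gave 0 calls in limma. Medians were -0.05 for spiny projection neurons (20 genes, 1 lower at an unadjusted p under 0.05), -0.04 for interneurons and astrocytes, -0.09 for oligodendrocytes, -0.11 for their precursors, -0.21 for ependymal cells and -0.34 for blood. With RIN the spiny projection neuron median was -0.11, that of astrocytes -0.12 and that of blood 0.14. Lists for interferon, thyroid hormone response, neighbouring subcortical neurons and meningeal fibroblasts also held 0 calls, with medians between -0.15 and 0.11. Of the 4 tested Y-linked genes 0 passed, and 2 were higher at an unadjusted p under 0.05 without RIN (26.7% of all genes in either direction). Their median was 0.32, and 0.0008 with RIN. Uty, a Y-linked gene, was at 0.415 to 2.17 in batch 1 and at 0.797 to 2.59 in batch 2. Xist was under the minimum level for testing.

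**Figure D5:**
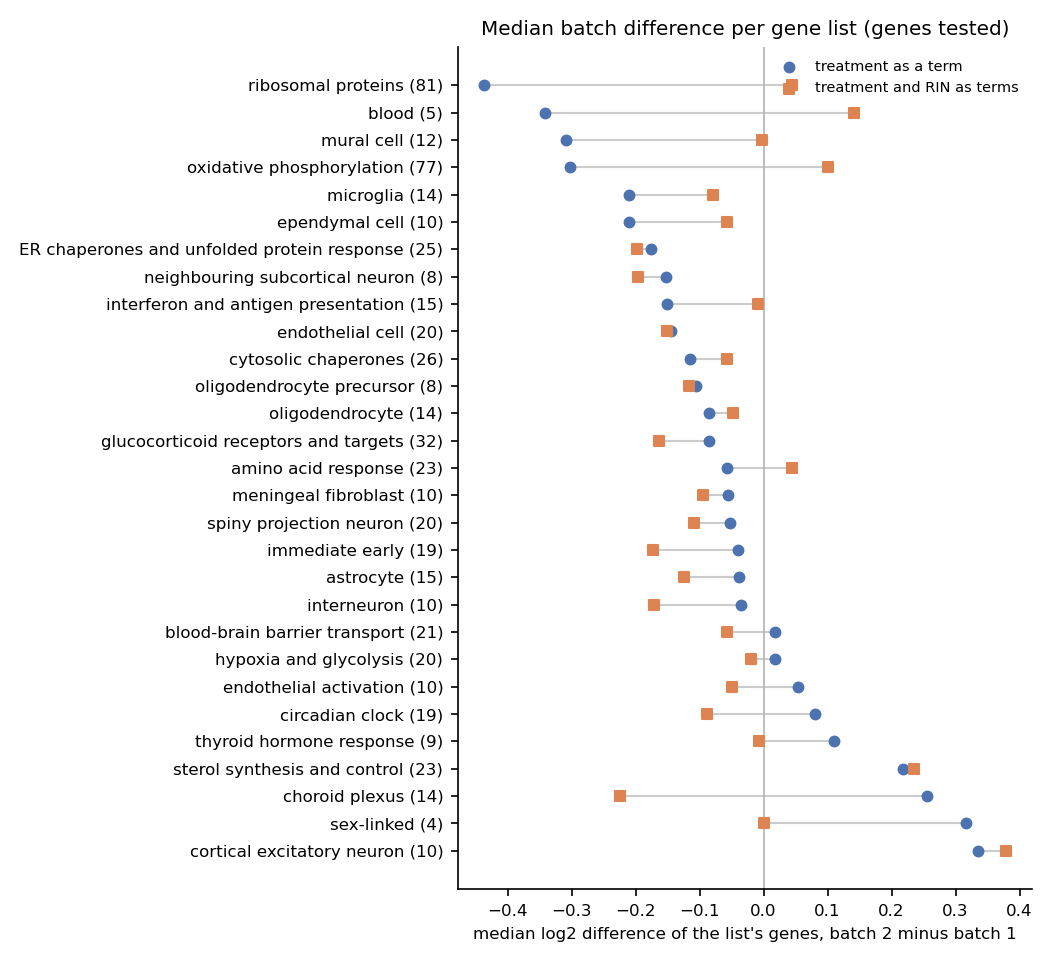
Median log2 difference (batch 2 minus batch 1) over the tested genes of each of 29 lists, with treatment (blue circles) and with treatment and RIN (orange squares) as terms; the number of genes is in brackets. The sterol, ER chaperone, endothelial and cortical medians change by less than 0.1 with RIN, while the ribosomal, oxidative phosphorylation, mural cell and choroid plexus medians move by over 0.3.

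Within treatments, the differences pointed the same way for the marker genes. In the 16 haloperidol mice 1 gene passed, Insig1 (0.00784%), with 602 at an unadjusted p under 0.05 (4.72%). In the 12 placebo mice 0 passed (0.00%), with 2773 at that unadjusted p (21.7%). RIN was higher in batch 2 by 0.449 in haloperidol mice (exact permutation test, p = 0.0743) and by 0.764 in placebo mice (exact permutation test, p = 0.0242). Relative depth differed by 0.169 (exact permutation test, p = 0.349) and by -0.413 (exact permutation test, p = 0.0808), and the part of either in these counts was not tested. Creld2 differed by -0.60 in haloperidol and -0.77 in placebo mice, Fndc9 by -0.56 and -0.81, Slc2a1 by -0.36 and -0.27, and Tsc22d3 by -0.45 and -0.18. In placebo mice Tsc22d3 was at 36.2 to 49.7 in batch 1 and at 35.6 to 38.2 in batch 2, and in haloperidol mice at 38.9 to 53.3 and at 30.2 to 36.3. How many of all genes are apart between batches within 1 treatment was not counted.

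The test of the batch difference between treatments called 0 genes (limma; 0.00%), with 206 at an unadjusted p under 0.05 (1.61%). Its smallest p were those of Etfa, an electron transfer flavoprotein, whose batch difference was 0.14 in haloperidol and -0.38 in placebo mice, of the mitochondrial carrier Slc25a45 (0.07 and -0.81) and of Zdhhc22 (-0.17 and 0.56). The unadjusted p of Tsc22d3 and of Nts in that test were 0.0321 and 0.0338, and neither passed after adjustment.

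At the level of transcripts, 25 of 15324 passed without RIN (0.163%), 8 of them higher (0.0522%) and 17 lower (0.111%) in batch 2. With RIN 2 passed (0.0131%), those of Insig1 and Sc4mol, both higher. At an unadjusted p under 0.05 were 24.3% of transcripts without RIN and 5.26% with it. Hspa5 has 2 transcripts in the files. The main one, with medians of 156 and 107 in batches 1 and 2, fell by 0.57 (limma adjusted p = 0.0357), while the other had a difference of 0.34 with an SE of 0.58. Tsc22d3 fell through its shorter transcript, at medians of 43.6 and 34.3 (log2 -0.34, limma adjusted p = 0.0153), and its longer one was near 1. Sf1, a splicing factor, and Gnb1, a G protein subunit, had 1 transcript each that passed (log2 -0.47 and 0.48) while the gene did not.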

How the data were processed

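Striatal total RNA of 28 mice was sequenced after TruSeq library preparation, per the labels. The submitters' processing notes name TopHat2 2.0.6, Cufflinks and the mm9 genome; a Cufflinks version, and whether it used strand, was not given in the sources used here. The deposited values are FPKM of 30563 RefSeq transcripts in the attribute text of each file, given by the authors, and read counts were not used, so depth is known only as a ratio between libraries and no counting interval was computed. The half-width of the deposited FPKM interval had a library median of 12.2% to 22.7%.

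Gene FPKM was summed over transcripts of a symbol, and the 12760 genes whose mean FPKM reached 1 were tested. Tests used limma 3.58.1 in R 4.3.3 (lmFit, eBayes with a mean-variance trend) on log2(scaled FPKM + 0.5), 2-sided, Benjamini-Hochberg at 0.05, with treatment as a term in all mice; fold changes on that scale understate the change of low genes. Other fits added RIN, a batch-by-treatment term, or took 1 treatment alone. Library values were compared by 2-sided permutation tests (100000 resamples, exact within a treatment). Each library is 1 mouse, and p-values measure the spread between mice. The model with treatment as a term was tried on simulated data with noise independent between genes and no effect of RIN. That setting differs from these data, so it cannot show how reliable the calls are here. Promoters are from RefSeq (GRCm38.p6) and were matched by symbol.

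The genes named are the 5 marker genes, those called with and without RIN, up to 4 members of smallest p from each of 11 program lists and 1 from each other list, the 3 of smallest interaction p, and other called genes; 1 called gene is counted but not reported here. The mice, gene lists and tests were chosen with earlier results of these data known. Alternatives covered the pseudocount, the filter, scaling, array weights, further covariates, a rank test, RIN and FPKM sum limits and each mouse left out.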

Additional observations from a re-analysis of the deposited data

How the results depend on the processing

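All 52 genes kept their direction in every alternative and in all 28 fits without 1 mouse, but the count that passed did not hold. For the batch difference it was 15 with FPKM rescaled to a common sum (median of all genes 0.15), 6599 with array weights, 119 with the FPKM sum, 9 with the cortical neuron level and 258 with relative depth as a covariate. It was 10 without libraries of RIN under 7.5, 14 without those of FPKM sum over 540000, 6 in the shared RIN range and 0 by a stratified Wilcoxon test with 0.05 as threshold. Quantile scaling, other pseudocounts and filters, no treatment term and the choroid plexus covariate gave 41 to 60. Without 1 mouse it ranged from 17 to 201: it was 20, 19, 85, 24, 25, 33, 89, 79, 201 and 21 without batch 1 mice 3, 7, 8, 9, 10, 12, 13, 16, 17 and 19, and 18, 28, 80, 18, 23, 21, 28, 17 and 31 without batch 2 mice 21, 22, 23, 25, 26, 28, 29, 32 and 35. With RIN the count of 6 was 3 with no filter or no treatment term, 2 with a common sum, 170 with array weights, 43 with the FPKM sum, and 1 with the cortical level or without libraries of low RIN; without 1 mouse it ranged from 1 (mouse 9, 13 or 32) over 2 (mouse 23) to 10 (mouse 20). In haloperidol mice it was 0 with RIN or a common sum and 1 to 2 without 1 mouse (2 without 5, 13 or 15); in placebo mice 1 with a common sum and 0 to 1 without 1 mouse (1 without 16). For transcripts it was 2 with RIN and 10 with a common sum. The RIN difference was 0.449 in haloperidol mice alone (exact permutation p = 0.0743) and 0.764 in placebo mice (exact permutation p = 0.0242); that in relative depth was 0.169 and -0.413 (exact permutation p = 0.349 and 0.0808). The cause of these changes was not tested. No paired analysis was possible because the mouse numbers are not shared between the batches.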
